A study of Mus musculus with 6 samples.

Results

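The genes described here are those of the NRF2 pathway, of antioxidant enzymes and of enzymes of NADPH supply and the pentose phosphate pathway. They were compared between CSC and non-CSC of EO771, a mouse mammary carcinoma cell line. CSC stands for cancer stem cells and non-CSC for the cells that the labels set against them. The genes were chosen by symbol from a list of 38, and all 38 were found among the 49523 gene symbols of the count table. RNA sequencing gave 3 libraries for each group, with no further treatment, genotype or time in the labels. The sources used here do not state how CSC were separated or whether replicates were separate cultures, so the p-values reflect a spread among libraries that may be only technical. The comparison the submitters describe is of expression in CSC and in non-CSC.

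NRF2, encoded by Nfe2l2, is a transcription factor that is held in the cytoplasm and marked for degradation by KEAP1. When reactive molecules modify KEAP1, or when the autophagy receptor p62 (Sqstm1) takes KEAP1 away, NRF2 enters the nucleus, pairs with small MAF proteins and binds antioxidant response elements near genes of detoxification, of thioredoxin and glutathione metabolism and of NADPH supply. Peroxiredoxins, glutathione peroxidases and catalase remove peroxides, superoxide dismutases turn superoxide into hydrogen peroxide, and glutathione transferases join glutathione to electrophiles. Thioredoxin and glutathione are recycled at the cost of NADPH, which the pentose phosphate pathway and malic enzyme provide. In carcinoma cells the pathway is known for its part in resistance to oxidants and drugs.

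The DNA just before the start of some of these genes holds the letters that NRF2 and the related AP-1 factors are known to bind, and 5 such stretches are printed because their genes moved in both directions. RefSeq promoter windows of GRCm38.p6, 250 bases before to 50 bases after a start, were matched for 33 of the 38 genes. The core of the antioxidant response element was searched as TGACNNNGC and the AP-1 site as TGANTCA, each on both strands; the 2 can overlap. The first 3 sequences below are the 250 bases before the start of genes that were higher in CSC, with the element core in capitals. The last 2 are from genes that were at least 2-fold lower in CSC, with the AP-1 site in capitals. Both sites sit within the letters TGAGTCAGC, on the strand of the gene in Gstp1 and on the opposite strand in Osgin1. These letters differ from the searched core only in having TGAG for TGAC, a form the search did not count. The choice of capitals therefore does not set the higher genes apart from the lower ones. All are written 5′ to 3′ on the strand of the gene. In Prdx1 and G6pdx the core lies on the opposite strand, so the capitals read as its reverse complement.
Nfe2l2 (chr2:75704664-75704913, minus strand): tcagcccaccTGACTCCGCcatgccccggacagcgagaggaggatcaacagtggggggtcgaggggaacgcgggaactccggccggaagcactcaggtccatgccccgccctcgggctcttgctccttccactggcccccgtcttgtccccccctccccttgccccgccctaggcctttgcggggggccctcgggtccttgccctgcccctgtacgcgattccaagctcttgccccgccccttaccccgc
Prdx1 (chr4:116685349-116685598, plus strand): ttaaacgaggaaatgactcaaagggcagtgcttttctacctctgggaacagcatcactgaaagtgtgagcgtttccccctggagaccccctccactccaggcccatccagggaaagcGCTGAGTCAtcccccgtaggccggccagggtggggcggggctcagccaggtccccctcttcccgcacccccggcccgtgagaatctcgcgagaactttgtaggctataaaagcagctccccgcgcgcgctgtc
G6pdx (chrX:74428881-74429130, minus strand): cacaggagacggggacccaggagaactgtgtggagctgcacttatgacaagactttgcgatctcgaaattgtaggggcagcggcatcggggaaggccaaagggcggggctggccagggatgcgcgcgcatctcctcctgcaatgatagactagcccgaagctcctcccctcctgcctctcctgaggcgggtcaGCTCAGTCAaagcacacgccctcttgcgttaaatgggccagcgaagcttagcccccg
Gstp1 (chr19:4037913-4038162, minus strand): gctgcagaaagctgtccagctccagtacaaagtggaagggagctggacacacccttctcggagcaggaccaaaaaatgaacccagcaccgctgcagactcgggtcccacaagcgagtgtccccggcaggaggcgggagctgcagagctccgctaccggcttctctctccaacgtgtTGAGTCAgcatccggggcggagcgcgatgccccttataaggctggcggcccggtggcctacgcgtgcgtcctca
Osgin1 (chr8:119436897-119437146, plus strand): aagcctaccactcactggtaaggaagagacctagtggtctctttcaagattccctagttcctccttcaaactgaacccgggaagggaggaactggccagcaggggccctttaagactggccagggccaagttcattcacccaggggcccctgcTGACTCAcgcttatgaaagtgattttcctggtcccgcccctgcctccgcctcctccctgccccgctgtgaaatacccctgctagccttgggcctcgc
In Prdx1 the core match begins 133 bases before the start and shares letters with an AP-1 match, as the letters TGAGTCA within it show; another AP-1 match begins 237 bases before it. It begins 57 bases before the start in G6pdx and 240 bases before it in Nfe2l2. The AP-1 match begins 74 bases before the start in Gstp1 and 97 bases before it in Osgin1. The Osgin1 start used here lies inside the annotated gene, which spans 119425882 to 119446257 on chromosome 8.

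A match to the element core was present for 9 of the 33 genes with a window. Among all 32851 windows 12.4% held it, and 16.4% of the 12212 tested genes with a window had it in at least 1. By direction, 3 of 9 genes that were higher in CSC had a match (Nfe2l2, Prdx1 and G6pdx), as did 4 of 18 that were lower (Txnrd1, Srxn1, Sod1 and Me1) and 2 of 5 that were not called (Mgst1 and Pgd). An AP-1 match was present for 6 of the 33, against 7.81% of all windows and 7.08% of tested genes. These were 5 of the 18 that were lower (Osgin1, Srxn1, Gstp1, Mgst2 and Me1) and 1 of the 9 that were higher (Prdx1). A match describes letters in a short window and is not evidence of binding. The element counts leave out forms with TGAG in place of TGAC, such as those in Gstp1 and Osgin1, so they are not complete.

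The non-CSC libraries held 32204112 to 35971131 counts and the CSC libraries 27099879 to 28205651. The 38 genes took 0.683% to 0.685% of the counts in non-CSC and 0.644% to 0.658% in CSC. The keratin genes Krt8 and Krt18, which mark simple epithelium, were at 715 and 1255 CPM (the usual depth-scaled count, here on TMM-scaled library sizes) in non-CSC and 863 and 1267 CPM in CSC, whereas the adhesion gene Cdh1 was at 0.952 ± 0.110 and 0.752 ± 0.140 CPM (SD, n = 3). All 10 epithelial markers were tested, and 5 were higher and 3 lower in CSC. Krt7 rose from 501 ± 9.17 to 1057 ± 19.7 CPM, while Epcam fell from 21.3 ± 0.646 to 10.3 ± 0.192, Cldn4 from 5.66 ± 0.405 to 1.34 ± 0.0355 and Krt5 from 3.64 ± 0.253 to 1.006 ± 0.305 CPM. Markers of other cell types were low except for Dcn. Summed leukocyte markers (3 of 8 tested) were 27.7 to 29.8 CPM in non-CSC and 35.7 to 37.2 CPM in CSC, with Adgre1 and Cd3e at 0 counts. Within that sum Itgam rose from 0.741 ± 0.118 to 10.2 ± 0.432 CPM and Csf1r from 1.85 ± 0.0340 to 8.06 ± 0.613 CPM, whereas Cd68 fell from 25.4 ± 1.11 to 17.8 ± 0.780 CPM. Summed fibroblast markers (3 of 7 tested) were 555 to 589 CPM in non-CSC and 1196 to 1243 CPM in CSC, nearly all of it Dcn, with Lum and Dpt at 0 counts. Endothelial markers summed to 1.38 to 1.75 CPM in non-CSC and 5.83 to 6.03 CPM in CSC, with Tek and Emcn at 0; Vwf was higher and Pecam1 lower in CSC. Erythroid and adipocyte markers summed to 2.07 CPM or less in every library. The part of these marker differences in the results below was not tested. In bulk samples, fewer cells of a type and less RNA per cell cannot be told apart.

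Of the 38 genes, 36 passed the filter on low counts and were tested, and 30 of them were called, that is, had an adjusted p under 0.05 for CSC against non-CSC in edgeR's quasi-likelihood test, adjusted over all genes. This is 83.3% of those tested, against 66.5% of all 17630 genes tested and 75.5% of the 11137 with a mean of at least 5 CPM. In CSC 19 were lower, 52.8% of those tested against 33.1% of all genes and 42.4% of those at 5 CPM or more. Another 11 were higher, 30.6% against 33.4% of all genes and 33.1% of those at 5 CPM or more. The 38 genes were chosen with earlier results of these data known, so these shares describe them and are not a test. At least 2-fold falls were found for 5, Nqo1, Osgin1, Gstm1, Gstp1 and Hmox1, where 4.09% of all genes fell by that much. A rise of that size was found for Gpx3, where 8.01% of all genes rose by that much. The median log2 fold change (CSC minus non-CSC) was -0.13 over the 36 genes and 0.01 over all genes. The non-CSC and CSC values did not overlap for 30 of the 36, and for 69.3% of all genes tested. Within a group the coefficient of variation of the tested genes had a median of 3.09% in non-CSC and 2.98% in CSC, and reached 12.2% (Gsta4) and 11.2% (Mgst1).

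**Figure D1:**
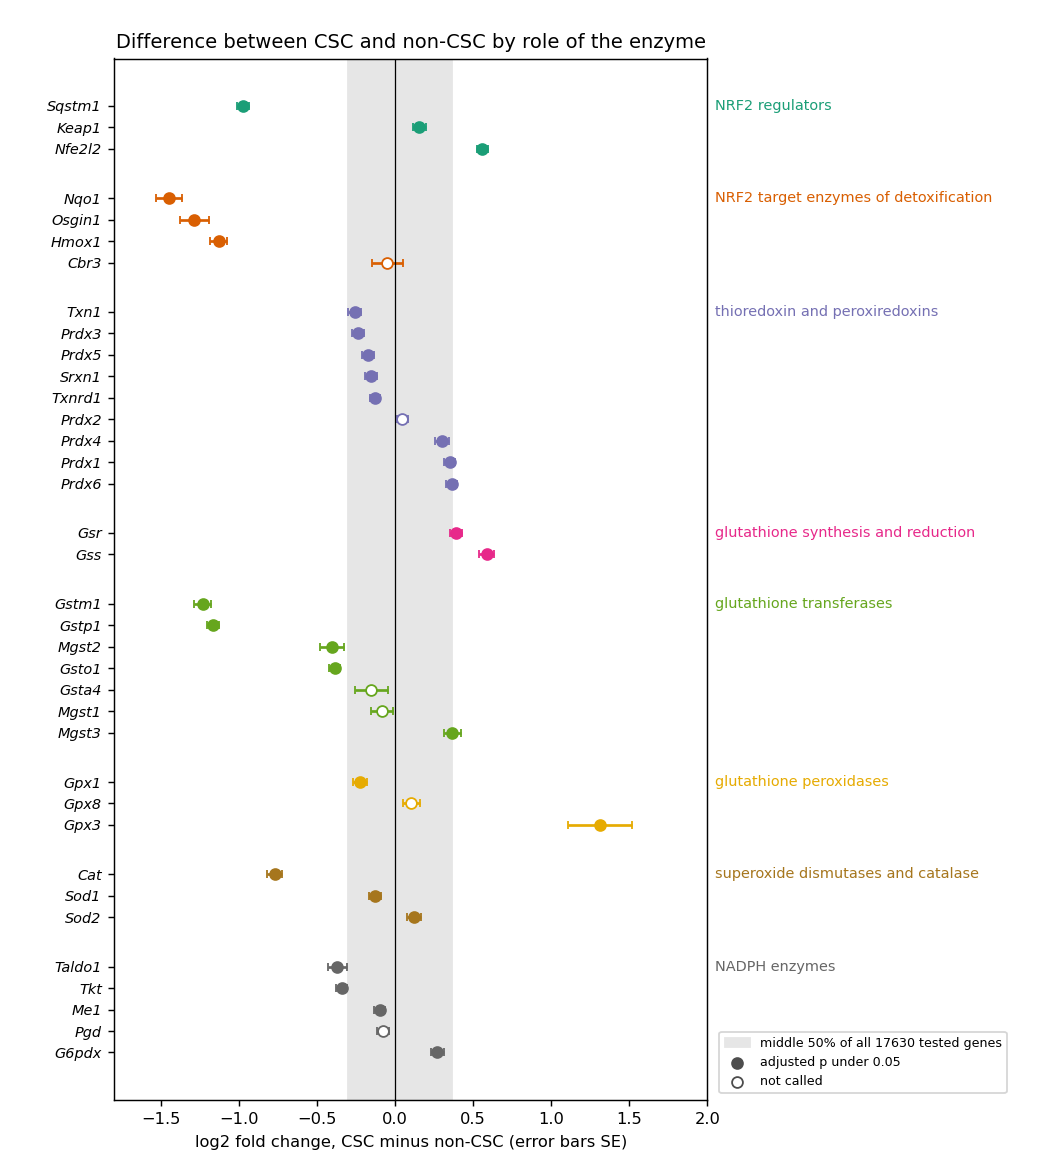
Each point is the log2 fold change (CSC minus non-CSC, horizontal axis) of 1 of the 36 tested genes with its standard error, grouped by role; filled points had an adjusted p under 0.05 and the grey band holds the middle 50% of all 17630 genes. The points furthest to the left are those of Nqo1, Osgin1, Gstm1, Gstp1, Hmox1, Sqstm1 and Cat, and those furthest to the right are Nfe2l2, Gss and Gpx3.

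The transcript of NRF2 itself was higher in CSC, while that of the receptor p62 was lower. Nfe2l2 (chromosome 2, 75675513 to 75704663, GRCm38, protein-coding) was at 138, 131 and 135 CPM in the non-CSC libraries and 198, 197 and 199 CPM in the CSC libraries. All CSC values lay above all non-CSC values, a 1.47-fold difference (log2 fold change 0.56 ± 0.035 SE, adjusted p = 2.53e-12). Keap1, the adaptor that targets NRF2 for degradation, was at 64.4, 60.9 and 59.6 CPM in non-CSC and 69.1, 69.3 and 67.3 CPM in CSC, so the groups did not overlap but lay close to each other. Its rise was 0.15 ± 0.043 (SE) on the log2 scale (adjusted p = 0.00306), and 10.9% of its exon bases are covered by Gm16754 on the other strand. Sqstm1 (chromosome 11, 50200152 to 50210820) fell from 698, 676 and 669 CPM to 352, 352 and 336 CPM. That is a log2 fold change of -0.98 ± 0.036 SE (adjusted p = 8.78e-17), just under 2-fold. Mrnip covers 17.3% of the exon bases of Sqstm1 on the other strand.

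Of 13 further regulators of NRF2, all tested, 6 rose and 4 fell, and the median log2 fold change was 0.08. This is 76.9% called, against 66.5% of all genes and 75.5% of those at 5 CPM or more. Both small MAF genes that passed the test fell: Mafk, from 141 ± 1.62 to 99.4 ± 1.86 CPM (means ± SD, n = 3), and Maff, from 56.6 ± 2.27 to 41.8 ± 0.681 CPM. Mafg, the remaining partner on the list, did not pass the test (adjusted p = 0.0696). Nfe2l1, a related transcription factor that is known for inducing proteasome genes, fell from 477 ± 27.2 to 273 ± 3.64 CPM. Btrc, a ubiquitin ligase subunit that marks NRF2 for degradation independently of KEAP1, fell by 0.49 on the log2 scale. Bach1 and Cul3, chosen after their values were seen, rose by 0.20 and 0.17 on the log2 scale; BACH1 competes with NRF2 at its elements and CUL3 is the ligase scaffold used by KEAP1.

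Of the 4 detoxification targets of NRF2 among the 38 genes, Nqo1, Osgin1 and Hmox1 fell at least 2-fold and Cbr3 was not called. Nqo1 (chromosome 8, 107388225 to 107403205), which encodes a quinone reductase, was at 11.03, 11.01 and 10.9 CPM in the non-CSC libraries. In CSC it was at 3.99, 4.03 and 4.03 CPM. The values within each group were nearly equal, but rested on 346, 382 and 386 counts in non-CSC and 110, 114 and 117 in CSC. Counting error at such counts is larger than this spread, so the closeness is no measure of precision. The difference was 2.73-fold (log2 fold change -1.45 ± 0.084 SE, adjusted p = 4.08e-13). Osgin1, an NRF2-induced gene linked to growth inhibition by oxidants, was at 8.73, 8.82 and 8.88 CPM in non-CSC and 3.63, 3.92 and 3.27 CPM in CSC. It fell 2.44-fold (log2 fold change -1.29 ± 0.093 SE, adjusted p = 2.47e-11). Hmox1 (chromosome 8, 75093618 to 75100593), which encodes the heme-degrading enzyme heme oxygenase 1, fell from 62.9, 57.1 and 58.9 CPM to 28.7, 27.004 and 25.8 CPM. The groups lay far apart, a 2.19-fold difference (log2 fold change -1.13 ± 0.052 SE, adjusted p = 6.48e-15). Cbr3, a carbonyl reductase, was at 7.14, 5.82 and 6.05 CPM in non-CSC and 6.21, 6.61 and 5.52 CPM in CSC. Its groups overlapped and it did not pass the test (log2 fold change -0.05, 95% interval -0.25 to 0.16, adjusted p = 0.674).

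**Figure D2:**
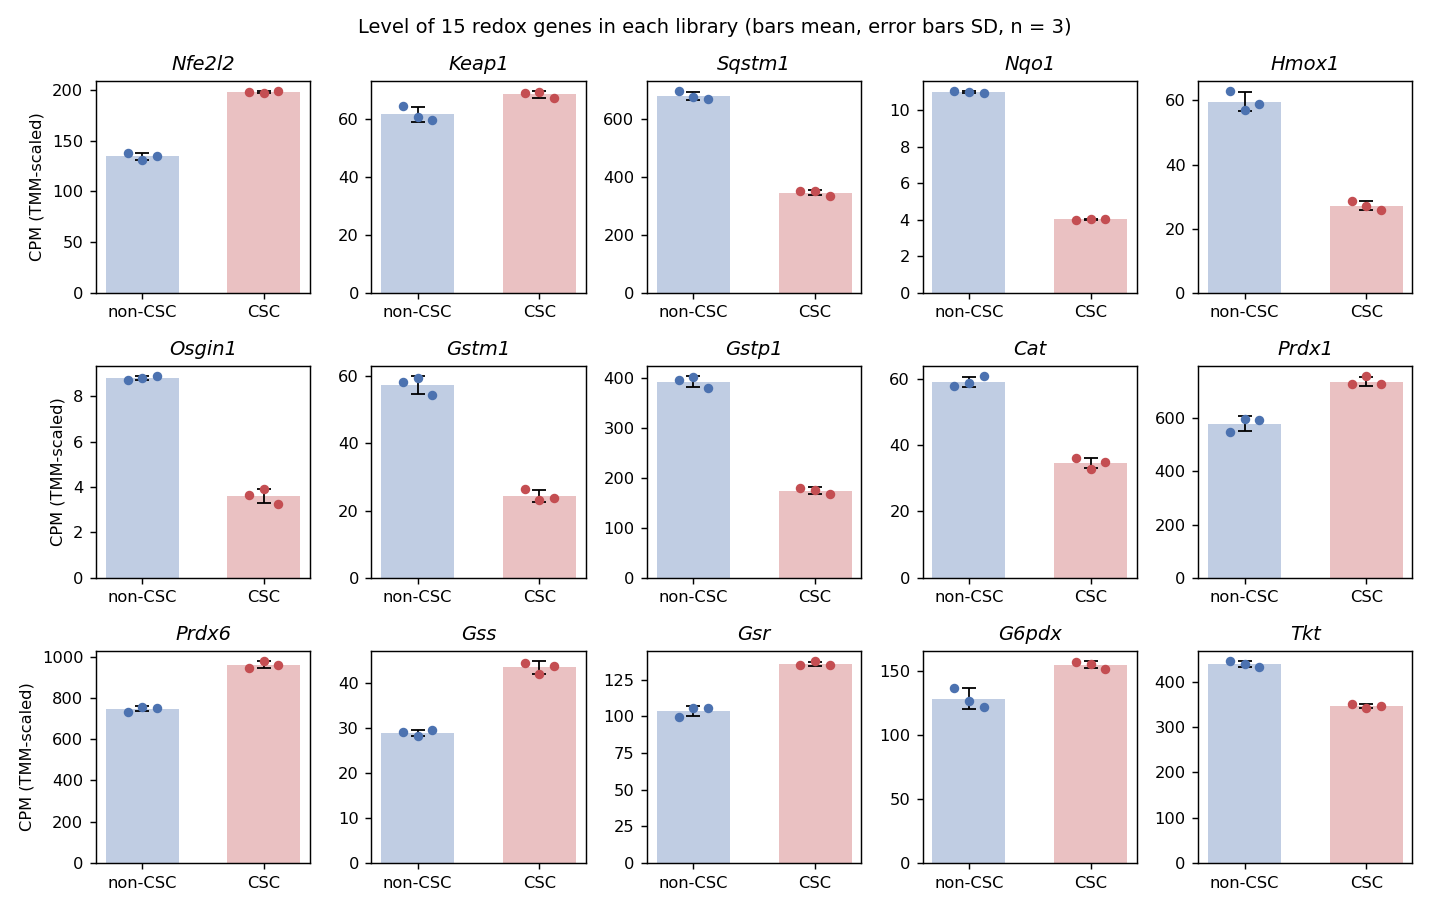
Level of 15 of the genes in CPM (vertical axes, from 0) in the 3 non-CSC (blue) and 3 CSC (red) libraries; points are libraries, bars group means and error bars SD. Each panel has its own axis, and Nqo1 lay at 10.9 to 11.03 CPM in non-CSC and 3.99 to 4.03 CPM in CSC. The 15 genes were picked from those that were called, and in none of these panels do the groups overlap. The same held for 30 of the 36 tested genes and for 69.3% of all genes tested.

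The wider set of NRF2 targets was also lower for the larger part. Of 22 further targets, all tested, 17 fell and 3 rose, with a median log2 fold change of -0.55. Lower genes made up 77.3%, against 33.1% of all genes and 42.4% of those at 5 CPM or more. The list was chosen with earlier results of these data known, so these shares are a description and not a test. Slc7a11, the cystine-glutamate exchanger, fell by 4.11 on the log2 scale and Esd, an esterase that also acts on S-formylglutathione, by 1.41. Slc48a1, a heme transporter of the lysosome, fell from 244 ± 19.95 to 102 ± 1.02 CPM (means ± SD, n = 3). Against these, the aldehyde dehydrogenase gene Aldh3a1 rose from 7.36 ± 0.242 to 23.7 ± 1.17 CPM. Transcripts of other genes hold 14.1% of the 50-base words of Esd, so part of its count is uncertain. Chosen after their values were seen, the subunits of the first enzyme of glutathione synthesis, Gclc and Gclm, fell from 45.2 ± 1.95 to 27.9 ± 2.14 CPM and from 78.6 ± 5.74 to 33.5 ± 0.540 CPM. Fth1, the ferritin heavy chain gene and also chosen in this way, fell from 819 ± 4.32 to 437 ± 33.2 CPM.

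The thioredoxin system and the peroxiredoxins moved by small amounts, and in both directions. Of 9 genes 5 fell and 3 rose, and none changed 2-fold. The share called was 88.9%, against 66.5% of all genes and 75.5% of those at 5 CPM or more. Txn1, cytosolic thioredoxin, was at 365, 395 and 409 CPM in non-CSC and 333, 332 and 311 CPM in CSC. It fell by 0.26 ± 0.042 (SE) on the log2 scale (adjusted p = 1.07e-05). Txnrd1, the selenium-containing reductase that recycles thioredoxin, fell by 0.13 (adjusted p = 0.00229), from 481, 461 and 479.9 CPM to 432, 440.2 and 428 CPM. This call was lost with upper-quartile scaling (adjusted p = 0.0766) and with library-size scaling (adjusted p = 0.116). Srxn1, sulfiredoxin, which repairs over-oxidised peroxiredoxins, fell by 0.16 (adjusted p = 0.00106), from 88.6 ± 0.113 to 79.5 ± 2.09 CPM (means ± SD, n = 3). With library-size scaling the fall of Srxn1 was 0.09 (adjusted p = 0.0462). The non-CSC SD of Srxn1 is smaller than counting error at its 2778, 3079 and 3132 counts, so it is no measure of precision.

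Among the peroxiredoxins, Prdx1, Prdx4 and Prdx6 were higher in CSC and Prdx3 and Prdx5 were lower. Prdx1 (chromosome 4, 116685599 to 116700000), an abundant cytosolic peroxidase and a known NRF2 target, rose from 547, 598 and 592 CPM to 728, 757 and 727 CPM. Its log2 fold change was 0.35 ± 0.038 SE (adjusted p = 2.56e-08), and 10.9% of its 50-base words occur in transcripts of other genes. Prdx6, a peroxidase that also has phospholipase activity, rose from 734, 757 and 752 CPM to 944, 977 and 960.1 CPM, by 0.36 ± 0.033 (SE) on the log2 scale (adjusted p = 1.75e-09). With the median of chromosome 1 taken off, the rise of Prdx6 was 0.15 (adjusted p = 0.000327). No CSC value of either gene came near the non-CSC range. Prdx4, the peroxiredoxin of the endoplasmic reticulum, was at 47.6, 50.7 and 51.2 CPM in non-CSC and 60.0, 62.1 and 61.8 CPM in CSC, a rise of 0.30 (adjusted p = 2.81e-06), or 0.18 (adjusted p = 0.00104) with the median of chromosome X taken off. Prdx3, found in mitochondria, was at 92.9, 90.0 and 95.3 CPM in non-CSC and 80.5, 77.8 and 77.4 CPM in CSC. It fell by 0.24 on the log2 scale (adjusted p = 1.14e-05). Prdx5, found in mitochondria, peroxisomes and cytosol, fell by 0.18 (adjusted p = 0.000313), from 93.4 ± 2.14 to 82.7 ± 1.09 CPM (means ± SD, n = 3). Both Prdx3 and Prdx5 lie on chromosome 19, whose tested genes had a median log2 fold change of -0.24, and both calls were lost, with the sign turned, when the median of each chromosome was taken off. The genes next to Prdx3, however, had a median of 0.22, and those next to Prdx5 one of -0.25. Prdx2, the remaining cytosolic member, was at 241 ± 3.55 CPM in non-CSC and 249 ± 8.78 CPM in CSC and did not pass the test (95% interval of the log2 fold change -0.03 to 0.12, adjusted p = 0.285); with upper-quartile and library-size scaling it did, as a rise (adjusted p = 0.0150 and 0.00991). Junb and Rnaseh2a cover 11.5% of its exon bases on the other strand.

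Of 14 further thioredoxin, glutaredoxin and methionine sulfoxide reductase genes, all tested, 7 fell and 3 rose. The list's median was -0.07 on the log2 scale, and 71.4% were called, against 66.5% of all genes. Txnrd2, the thioredoxin reductase of mitochondria, fell from 21.9 ± 1.17 to 13.7 ± 1.06 CPM (means ± SD, n = 3). Glrx5, a mitochondrial glutaredoxin of iron-sulfur cluster assembly, fell from 41.4 ± 1.69 to 25.99 ± 0.9745 CPM, and Nxn, nucleoredoxin, by 0.55 on the log2 scale. Glrx2, a glutaredoxin with mitochondrial and nuclear forms, rose from 19.1 ± 0.905 to 36.02 ± 0.979 CPM.

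The enzymes that complete and regenerate glutathione were both higher in CSC. Gss, glutathione synthetase, which performs the last step of synthesis, was at 29.2, 28.2 and 29.5 CPM in non-CSC and 44.6, 42.0 and 43.9 CPM in CSC. It rose 1.502-fold (log2 fold change 0.59 ± 0.048 SE, adjusted p = 2.40e-10), and 15.4% of its exon bases are covered by other genes on the other strand. Gsr, glutathione reductase, which uses NADPH to recycle oxidised glutathione, rose from 99.8, 106 and 106 CPM to 135, 137 and 135 CPM. Its values in CSC were all above those in non-CSC (log2 fold change 0.39 ± 0.037 SE, adjusted p = 2.92e-09). Gclc and Gclm, which act before Gss, fell as given above.

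Glutathione transferases were lower in CSC for 4 of 7 genes and higher for 1. With 71.4% called, they lay near the 66.5% of all genes and the 75.5% of those at 5 CPM or more. Gstm1 (chromosome 3, 108012250 to 108017973), a mu class transferase, was at 58.2, 59.4 and 54.4 CPM in non-CSC and 26.3, 23.1 and 23.7 CPM in CSC. It fell 2.35-fold (log2 fold change -1.23 ± 0.054 SE, adjusted p = 2.79e-15), with 23.1% of its 50-base words shared with other transcripts. Gstp1 (chromosome 19, 4035411 to 4037912), a pi class transferase known for its abundance in carcinoma cells, fell from 395, 401 and 379 CPM to 180.2, 175 and 166 CPM. The difference was 2.25-fold (log2 fold change -1.17 ± 0.038 SE, adjusted p = 1.14e-17). Across 16 alternatives the log2 fold change of Gstp1 ran from -1.21 to -0.93, so not every fit gave a 2-fold fall. Its copy Gstp2 holds 62.3% of its 50-base words, so counts of the pair cannot be separated with certainty. Summed, Gstp1 and Gstp2 were at 406 ± 9.92 CPM in non-CSC and 180.0 ± 6.43 CPM in CSC (SD, n = 3), a log2 ratio of -1.17.

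Gsto1, an omega class transferase that reduces dehydroascorbate, was at 851, 868 and 826 CPM in non-CSC and 636, 672 and 639 CPM in CSC. It fell by 0.39 ± 0.035 (SE) on the log2 scale (adjusted p = 1.57e-09), and by 0.14 (adjusted p = 0.00111) with the median of its chromosome taken off. The microsomal transferase genes, which encode membrane enzymes, differed among themselves. Mgst2 fell by 0.40 (adjusted p = 5.28e-05), from 13.4, 14.5 and 14.0 CPM to 9.58, 11.8 and 10.3 CPM, and by 0.26 (adjusted p = 0.00373) with the median of chromosome 3 taken off. Mgst3 rose by 0.37 (adjusted p = 2.01e-06), from 27.8, 25.6 and 25.5 CPM to 33.9, 34.96 and 32.7 CPM, and by 0.16 (adjusted p = 0.0115) with the chromosome median taken off. Mgst1 was at 24.6, 22.2 and 23.3 CPM in non-CSC and 21.5, 24.7 and 19.9 CPM in CSC, and its groups overlapped (95% interval of the log2 fold change -0.23 to 0.06, adjusted p = 0.284). Without CSC replicate 2, the highest CSC library for this gene, it was called lower (log2 fold change -0.18, adjusted p = 0.0240). Gsta4, an alpha class transferase for lipid aldehydes, was at 4.69, 4.47 and 5.60 CPM in non-CSC and 4.50, 4.63 and 4.17 CPM in CSC and did not pass the test (95% interval -0.38 to 0.07, adjusted p = 0.217).

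Of 23 further transferase and peroxidase genes 16 were tested, and 9 fell and 4 rose. The list's median was -0.44 on the log2 scale, and 81.2% were called, against 66.5% of all genes. Gstp3, a pi class gene with no 50-base word in common with other transcripts, fell from 26.1 ± 1.03 to 2.76 ± 0.194 CPM (means ± SD, n = 3). Gsto2, another omega class gene, fell by 0.95, Gstz1 by 0.63 and Gstp2 by 1.21 on the log2 scale. Gpx4, the peroxidase for membrane lipids and chosen after its values were seen, was at 231 ± 1.26 CPM in non-CSC and 233 ± 6.78 CPM in CSC and did not pass the test (adjusted p = 0.755).

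The glutathione peroxidases did not share a direction. Gpx1, the abundant cytosolic selenoprotein, was at 117, 111 and 105 CPM in non-CSC and 99.96, 91.8 and 92.7 CPM in CSC. It fell by 0.23 ± 0.044 (SE) on the log2 scale (adjusted p = 9.03e-05). Gpx3, which encodes the secreted form, rose 2.49-fold but from a low level, 0.574, 0.548 and 0.566 CPM in non-CSC to 1.27, 1.52 and 1.41 CPM in CSC. The counts behind it were 18, 19 and 20 and 35, 43 and 41, and its standard error was the highest of the 36 (log2 fold change 1.31 ± 0.21 SE, adjusted p = 6.65e-06). Gpx8, a peroxidase of the endoplasmic reticulum, was at 28.4 ± 1.76 CPM in non-CSC and 30.4 ± 1.10 CPM in CSC (SD, n = 3). It did not pass the test (95% interval of the log2 fold change -0.01 to 0.22, adjusted p = 0.104) but was called higher in 4 of 16 alternatives, among them the fit without non-CSC replicate 1 (adjusted p = 0.0388). Gpx7, also of the endoplasmic reticulum, had 1 count in the 3 non-CSC libraries together and 0 of 83009140 counts in CSC, which allows up to 0.0361 CPM there. It was not tested.

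Among catalase and the superoxide dismutases, catalase showed the largest change. Cat (chromosome 2, 103453904 to 103485153), the peroxisomal enzyme that splits hydrogen peroxide, was at 57.8, 58.8 and 60.8 CPM in non-CSC and 36.1, 32.9 and 34.8 CPM in CSC. The fall was 1.71-fold (log2 fold change -0.77 ± 0.047 SE, adjusted p = 1.26e-12). Sod1, the copper-zinc dismutase of the cytosol, was at 204, 218 and 220.2 CPM in non-CSC and 201, 195 and 190.0 CPM in CSC, so the groups lay side by side. It fell by 0.13 (adjusted p = 0.00430), and it no longer passed after scaling by the upper quartile (adjusted p = 0.0976) or the library size (adjusted p = 0.138). Sod2, the manganese dismutase of mitochondria, was at 41.7, 39.9 and 40.4 CPM in non-CSC and 43.1, 44.0 and 45.5 CPM in CSC. Its rise of 0.12 passed the test (adjusted p = 0.0226) but was lost in 7 of 16 alternatives, including those without non-CSC replicate 2 or 3 and without CSC replicate 2 or 3 (adjusted p = 0.0510 to 0.115). Sod3, the extracellular dismutase, had 0 of 103821919 counts in non-CSC, which allows up to 0.0289 CPM, and 1 count in CSC. These limits cover counting error only.

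Of the 5 genes grouped here as NADPH enzymes, G6pdx rose, Tkt, Taldo1 and Me1 fell, and Pgd was not called. Tkt and Taldo1 encode pentose phosphate enzymes that rearrange sugars and do not themselves form NADPH. G6pdx (chromosome X, 74409483 to 74428880), glucose-6-phosphate dehydrogenase, was at 137, 126 and 121 CPM in non-CSC and 157, 155 and 151 CPM in CSC. It rose by 0.27 ± 0.041 (SE) on the log2 scale (adjusted p = 4.34e-06), with 13.6% of its exon bases covered by Ikbkg on the other strand and 7.64% of its 50-base words shared with G6pd2. With the median of chromosome X taken off, the rise was 0.15 (adjusted p = 0.00256). Pgd, the next dehydrogenase of the pathway, was at 188, 179 and 175 CPM in non-CSC and 175, 171 and 167 CPM in CSC. Its groups overlapped at 1 library (95% interval of the log2 fold change -0.155 to -0.0005, adjusted p = 0.0709), and it was called lower in 4 of 16 alternatives, among them those without non-CSC replicate 3 (adjusted p = 0.0242) and without CSC replicate 1 (adjusted p = 0.0381). Tkt (chromosome 14, 30549131 to 30574724), transketolase, fell from 445, 439 and 433 CPM to 350.0, 342 and 346 CPM. The fall was 0.34 ± 0.034 (SE) on the log2 scale (adjusted p = 6.31e-09), and 0.17 (adjusted p = 0.000144) with the median of chromosome 14 taken off. Taldo1, transaldolase, was at 195, 165 and 165 CPM in non-CSC and 134, 138 and 134 CPM in CSC, with non-CSC replicate 1 above the others of its group. It fell by 0.37 ± 0.058 (SE) (adjusted p = 9.94e-05), and Gm17823 holds 10.9% of its 50-base words. Me1, cytosolic malic enzyme, was at 406, 399.8 and 412 CPM in non-CSC and 365, 390.3 and 382 CPM in CSC. Its fall of 0.10 (adjusted p = 0.0197) was lost in 4 of 16 alternatives, including the fit without CSC replicate 1 (adjusted p = 0.0750), and other transcripts hold 26.5% of its 50-base words.

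Of 20 further genes of NADPH supply and the pentose phosphate pathway, 17 were tested, and 9 fell and 7 rose. The list's median was -0.16 on the log2 scale, and 94.1% were called, against 66.5% of all genes. Mthfd2, a mitochondrial folate enzyme, fell from 154 ± 8.11 to 34.2 ± 0.567 CPM (means ± SD, n = 3). Rpe, the epimerase of the same sugar steps as Tkt and chosen after its value was seen, rose by 0.14 on the log2 scale (adjusted p = 0.00958). Rpia, ribose-5-phosphate isomerase, which acts between Pgd and Tkt, fell from 61.6 ± 4.13 to 21.3 ± 1.05 CPM. Shpk, a kinase of sedoheptulose, a sugar of the same pathway, rose from 7.72 ± 0.530 to 37.5 ± 2.12 CPM, and Nnt, the mitochondrial transhydrogenase, from 53.6 ± 2.32 to 86.9 ± 2.24 CPM. Idh1 and Idh2, chosen after their values were seen, moved apart: the cytosolic enzyme rose by 0.37 and the mitochondrial enzyme fell by 0.53 on the log2 scale.

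**Figure D3:**
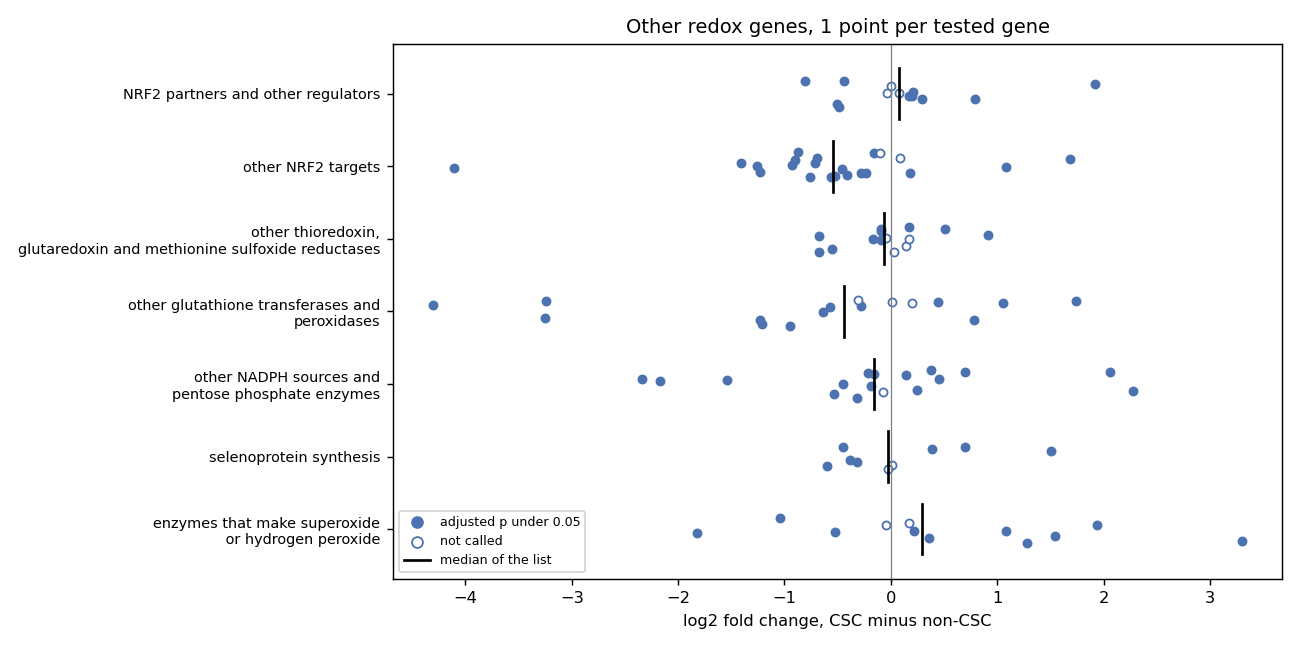
Log2 fold change (CSC minus non-CSC, horizontal axis) of each tested gene of 7 further redox lists, 1 point per gene; filled points had an adjusted p under 0.05, black bars are list medians, and the vertical scatter within a row has no meaning. The median of the further NRF2 targets is -0.55, and those of the other 6 lists lie between -0.44 and 0.29.

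Genes for making selenoproteins and for making reactive oxygen were described alongside, since several of the peroxidases are selenoproteins and act on these products. Of 9 selenoprotein synthesis genes, all tested, 4 fell and 3 rose, and the list's median was -0.02 on the log2 scale. The share called was 77.8%, against 66.5% of all genes. Scly, which releases selenium from selenocysteine, rose from 8.14 ± 0.138 to 23.1 ± 0.772 CPM (means ± SD, n = 3). Secisbp2, which binds the selenocysteine insertion element, rose from 12.9 ± 0.291 to 20.9 ± 1.20 CPM, while the elongation factor gene Eefsec fell by 0.45 and the kinase gene Pstk by 0.60 on the log2 scale. Ikzf5 covers 58.8% of the exon bases of Pstk on the other strand. Of 20 genes for enzymes that make superoxide or hydrogen peroxide, or their subunits, 12 were tested; 3 fell and 7 rose, and the median was 0.29. The share higher was 58.3%, against 33.4% of all genes, and the share lower 25%, against 33.1%. Xdh, xanthine dehydrogenase, rose from 21.6 ± 0.418 to 82.8 ± 2.38 CPM. Noxo1, an organiser of NADPH oxidase 1, rose from 4.39 ± 0.637 to 10.6 ± 0.772 CPM, although Tbl3 covers 70.4% of its exon bases on the other strand. Ero1a, the thiol oxidase of the endoplasmic reticulum that produces hydrogen peroxide, fell from 279.9 ± 14.8 to 79.0 ± 3.49 CPM. Over the 7 further lists together 103 of 121 genes were tested, and 53 fell and 33 rose. This is 83.5% called, against 66.5% of all genes. These lists too were chosen with earlier results of these data known.

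Levels of different genes were compared per length of exon, as CPM per kilobase (the union of all annotated exons, so a gene with rarely used long exons is given too low). The order in non-CSC ran from Gsto1 at 419 ± 10.5 and Txn1 at 371 ± 21.8 CPM per kilobase down to Osgin1 at 3.30 ± 0.0285 and Gpx3 at 0.310 ± 0.00734 CPM per kilobase (means ± SD, n = 3). In CSC the order at the top was Gsto1 at 321 ± 9.82 and Txn1 at 309.6 ± 11.6, with overlapping spreads, then Prdx1 at 242 ± 5.66 and Prdx6 at 199.9 ± 3.46 CPM per kilobase. Gstp1 and Sqstm1, at 253 ± 7.24 and 203 ± 4.49 CPM per kilobase in non-CSC, stood above Prdx1 at 190.3 ± 9.06, although the spreads of Sqstm1 and Prdx1 touched. In CSC both were below Prdx1 and Prdx6, at 112 ± 4.48 and 103 ± 2.75 CPM per kilobase. Nqo1, widely used as a readout of NRF2 activity, was among the lower genes in both groups, at 7.07 ± 0.0369 and 2.59 ± 0.0144 CPM per kilobase. For Nqo1, Osgin1 and Gpx3 the non-CSC SDs given here are smaller than counting error and are no measure of precision.

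**Figure D4:**
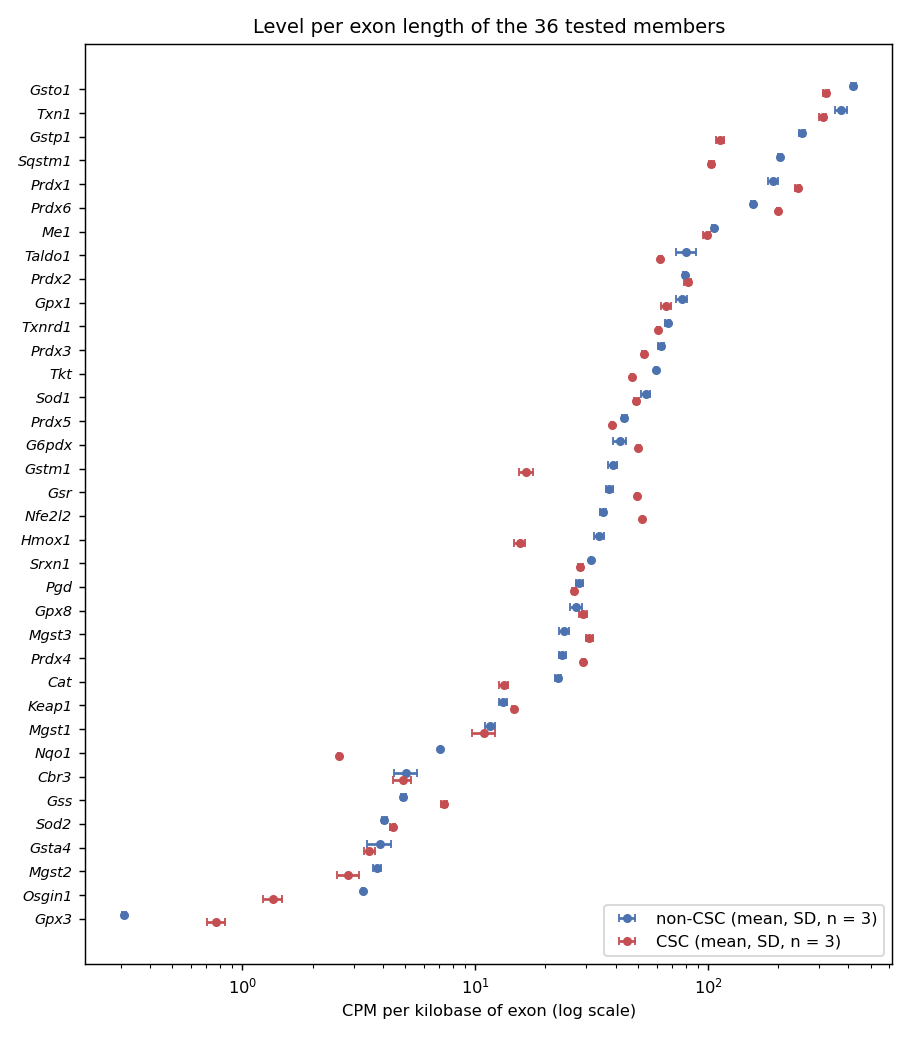
Level of the 36 tested genes in CPM per kilobase of exon (horizontal log axis), ordered by the non-CSC mean; points are means and bars SD of 3 libraries, non-CSC in blue and CSC in red. Gstp1 and Sqstm1 drop from 253 and 203 to 112 and 103 CPM per kilobase, while Prdx1 and Prdx6 move up to 242 and 199.9.

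The position of a gene was set beside its difference, since tested genes of some chromosomes differed as a whole between the groups. The median log2 fold change was 0.21 on chromosome 1, which holds Prdx6 and Mgst3, and -0.24 on chromosome 19, which holds Prdx3, Prdx5, Gstp1 and Gsto1. For each gene the median of the 15 adjacent tested genes on each side was taken (19 genes in all for Prdx3, which lies near a chromosome end). Of the 30 genes called, 16 had the sign of their neighbours' median. For 7 of them the difference was within 0.15 of that median: Prdx5, Prdx6, Gsto1, Mgst2, Mgst3, G6pdx and Me1. Mgst2 fell by 0.40 beside neighbours at -0.50, and Mgst3 rose by 0.37 beside neighbours at 0.37. Prdx6 rose by 0.36 beside neighbours at 0.31. Another 10 were more than 0.5 away: Nfe2l2, Sqstm1, Nqo1, Hmox1, Osgin1, Gss, Gstm1, Gstp1, Gpx3 and Cat. The neighbours of Nqo1 and Hmox1 had medians of -0.00 and -0.04, those of Gstm1 0.15 and those of Cat 0.18. Gstp1 fell by 1.17 beside neighbours at -0.34. With the median of each chromosome taken off, the rise of Keap1 was 0.10 (adjusted p = 0.0419), and Sod1 and Me1 fell by 0.21 and 0.15. DNA copy number was not measured, and its part in these values was not tested.

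**Figure D5:**
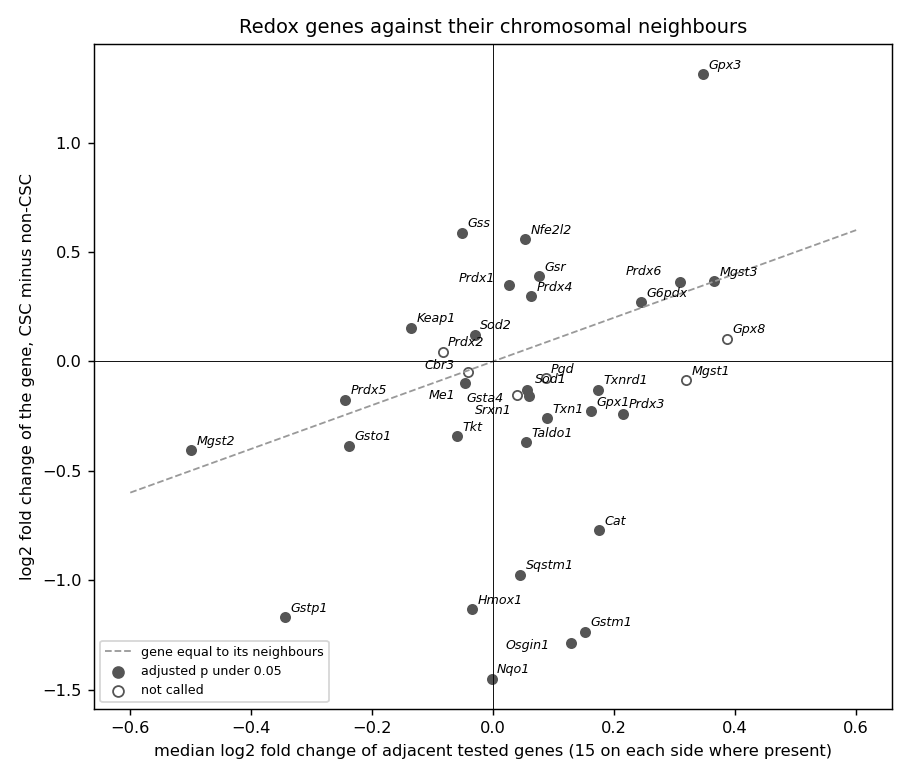
Log2 fold change (CSC minus non-CSC) of each of the 36 tested genes (vertical axis) against the median of its adjacent tested genes, 15 on each side where present (horizontal axis); filled points had an adjusted p under 0.05 and the dashed line marks equality. Mgst2, Prdx5, Prdx6, Mgst3 and G6pdx lie near the line, while Nqo1, Osgin1, Gstm1, Hmox1, Gstp1, Sqstm1 and Cat lie well below it.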

How the data were processed

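The authors deposited whole-number read counts per gene symbol for 6 libraries of EO771 cells. Per the labels' protocols, 1.3 µg of Trizol-extracted total RNA entered each library, and GRCm38 is the build in the submitters' processing notes. The aligner, the counter and any use of strand were not given in the sources used here. Groups came from the sample titles. Genes were filtered with filterByExpr, scaled by TMM and tested with edgeR 4.0.16 (R 4.3.3; quasi-likelihood, robust, Benjamini-Hochberg over 17630 genes); standard errors were derived from its F statistic, and the fit was also tested on simulated data. The common biological coefficient of variation was 4.11%. DESeq2 1.42.0, limma 3.58.1, other scalings and filters, a replicate block, chromosome offsets and leaving out each library were alternatives. Of each further list, up to 4 genes with the highest absolute log2 fold change among those called at a mean of at least 5 CPM were named. A gene that this rule names is not reported here. The members and lists were chosen with earlier results of these data known. Exon lengths, overlaps and shared 50-base words came from the GENCODE annotation of GRCm38. Replicates differed by more than sampling noise (chi-square per degree of freedom 3.21 to 7.30), so none was treated as the same library sequenced again. These values cannot tell separate cultures from separate preparations of the same RNA.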

Additional observations from a re-analysis of the deposited data

How the results depend on the processing

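Across 16 alternatives 28 to 31 of the 38 genes were called, 10 to 13 higher and 16 to 20 lower, against 30, 11 and 19 in the report. Leaving out each library in turn gave 29 to 31 of these genes, 11175 to 11578 genes in all and 82 to 85 genes of the further lists. Same-numbered libraries of the 2 groups did not deviate together (correlations -0.02, -0.08 and 0.01), so the numbers were not taken to pair samples; with a replicate block 30 of the 38 genes, 84 genes of the further lists and 11680 genes in all were called. DESeq2 called 29 and limma-voom 30 of the 38. With the median of each chromosome taken off, Prdx3 turned to 0.0029 (adjusted p = 0.954) and Prdx5 to 0.0676 (adjusted p = 0.124); by construction this removes whatever a chromosome's genes share. Upper-quartile and library-size scaling moved the median of all genes up by 0.06 and 0.07 on the log2 scale; Txnrd1, Sod1 and Me1 then lost their calls, and Prdx2 and Gpx8 gained one. Me1 also lost its call with a filter at a mean of 50 counts (adjusted p = 0.101), where Gpx3 was not tested. Sod2 lost its call without a low-count filter (adjusted p = 0.104), with DESeq2 (0.0706) and with chromosome medians taken off (0.114). Depth limits Gpx3, Gpx7 and Sod3, the genes of this set under 2 CPM.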

Other observations

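Further genes of these lists were called but fall outside the genes named above, by their level or by the limit of 4 per list; they were chosen after their values were seen. Gpx2, an epithelial glutathione peroxidase, was at 0.956, 0.750 and 1.30 CPM in the non-CSC libraries and 0.0363, 0.0353 and 0.0689 CPM in the CSC libraries (adjusted p = 1.39e-08, edgeR). Gstk1, a kappa class transferase, was at 0.733, 0.807 and 0.905 CPM in non-CSC and 0.181, 0.0353 and 0.0345 CPM in CSC (adjusted p = 3.84e-07, edgeR). Both were lower in every CSC library. Duox2, a dual oxidase that makes hydrogen peroxide, was higher in CSC, at 1.13, 0.778 and 0.552 CPM against 0, 0.0865 and 0.141 CPM (adjusted p = 3.65e-06, edgeR). Ephx1, the microsomal epoxide hydrolase, rose from 219.7 ± 3.80 to 465 ± 9.69 CPM (means ± SD, n = 3), so that it and Aldh3a1 were the NRF2 targets of the list that rose at least 2-fold. Aldh1l2, which yields NADPH in mitochondria from formyl-tetrahydrofolate, fell from 7.03 ± 0.601 to 1.39 ± 0.0540 CPM, in the same direction as Mthfd2. Bach2, related to Bach1, rose from 0.639 ± 0.0749 to 2.44 ± 0.318 CPM.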
